A study of Mus musculus with 24 samples.

Results

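Treated Arg1 knockouts (TR) were compared with wild types (WT) in the frontal lobe of the young mouse brain. The comparison rests on 6 of the 24 arrays of the study, 3 TR and 3 WT, taken as the arrays of both genotype labels that share a batch label. The TR mice were Arg1 knockouts that had received a virus, and the labels name neither the virus, nor what it carried, nor the promoter in it. The WT mice carried no altered Arg1 allele according to their label, and both groups were killed at postnatal day 14. The same batch, called batch 3 here, also held 3 untreated knockouts (KO) and 3 heterozygotes (HE) of that age. The other TR arrays were in batch 2 with HE arrays, and the other WT arrays were in batch 1 with KO arrays, at days 13 to 15 with 1 array per group and day. The labels do not give the strain, sex or litter of the animals.

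Arginase 1 splits arginine into ornithine and urea and closes the urea cycle in the liver. Its loss lets arginine build up and can lead to high ammonia, and in people arginase deficiency is known for spasticity and loss of motor and mental skills. Myelin, the membrane that oligodendrocytes wrap around axons, is laid down in the mouse forebrain in the weeks after birth, and the study's title ties hepatic arginase deficiency to faulty myelination in that period. TR was set against WT to see what differs in the brain of a treated knockout from that of an animal that never lacked the enzyme.

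Each array gave 1 log2 expression value for each of 18057 Ensembl mouse genes. The files pair none of these IDs with a gene name and the reference table used here holds no Ensembl IDs, so genes are given by ID, the markers of the frontal lobe and of cell types could not be checked, and the row of Arg1 itself was not identified. The medians of the arrays lay between 6.751 and 6.786 in TR and between 6.764 and 6.774 in WT. The standard deviation of a gene over 3 arrays had a median of 0.112 in TR and 0.106 in WT. One array outside the comparison, KO replicate 1, stood apart on the first principal component of batch 3 (24.3% of the variance), at -34.0 where the other 11 arrays lay between -12.3 and 10.2. It enters the comparison of TR with WT only through the estimate of the spread.

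Over all genes the distances between TR and WT arrays overlapped with those between arrays of 1 group. The root mean square difference between a TR and a WT array ran from 0.198 to 0.251 log2 over 9 pairs, with a median of 0.228. Between 2 WT arrays it ran from 0.198 to 0.249, and between 2 TR arrays from 0.218 to 0.255, with medians of 0.211 and 0.242. The 3 HE pairs lay lower, at 0.185 to 0.221, all below the median of the TR and WT pairs. The 9 pairs of a KO and a WT array lay at 0.254 to 0.359, all above the 9 TR and WT pairs. The KO arrays were also far from each other, at 0.280 to 0.345 with a median of 0.297, above the median of 0.278 of the KO and WT pairs. Pairs that share an array are not independent, and these distances are a description.

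**Figure D1:**
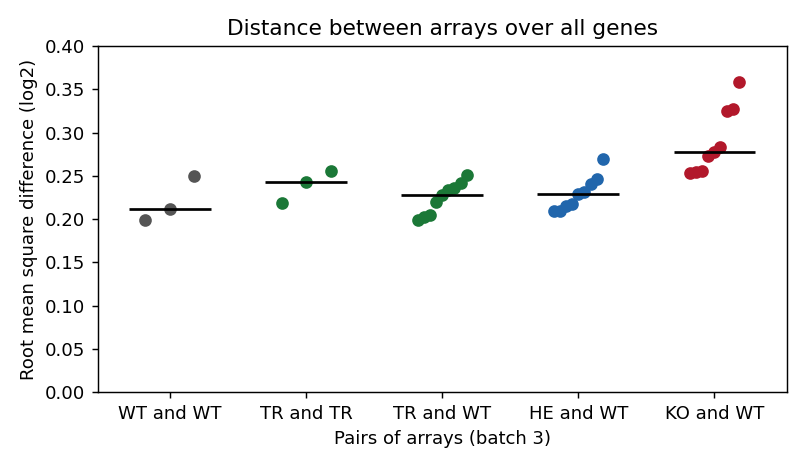
Root mean square difference over 18057 genes (y axis, log2) for pairs of arrays of batch 3 (points), with the median of each kind of pair (black line). The kinds drawn are the pairs within WT, the pairs within TR, and the pairs of WT with TR, HE and KO. The TR and WT pairs, at 0.198 to 0.251, overlap with the pairs within WT and within TR. The KO and WT pairs, at 0.254 to 0.359, lie above the TR and WT pairs. The pairs within KO, at 0.280 to 0.345, are not drawn.

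A single gene passed the test between TR and WT. ENSMUSG00000019987 read 7.22, 7.37 and 7.45 in the TR arrays and 4.31, 3.94 and 4.80 in the WT arrays, on the log2 scale. Every TR array was thus above every WT array, with no overlap. The difference of 2.996 ± 0.198 log2 (SE, 3 arrays per group), or 7.98-fold, had a limma adjusted p (Benjamini-Hochberg, 18057 genes) of 5.56e-06 and a 95% interval of 2.57 to 3.42. An exact two-sided permutation test of 3 arrays against 3 cannot go below 0.1 and gave 0.1.

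This gene was not particular to the treated animals. It was 2.36 ± 0.198 log2 higher in HE than in WT and 2.73 ± 0.198 log2 higher in KO than in WT (SE, 3 arrays per group), and both comparisons share the WT arrays. By limma, the adjusted p (Benjamini-Hochberg) of HE against WT was 0.000136 and that of KO against WT 1.94e-05. TR lay 0.27 log2 above KO, with a 95% interval of -0.16 to 0.69 and overlapping arrays. TR lay 0.64 log2 above HE in batch 3 without overlap, with a limma adjusted p (Benjamini-Hochberg) of 0.9998. In the separate arrays of batch 2 the difference of TR from HE was 0.75 ± 0.104 log2 (SE, 3 arrays per group), with an adjusted p (limma, Benjamini-Hochberg) of 0.0351. The gene therefore read lowest in the group without an altered allele, and which gene it is was not established.

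The share of all 18057 genes called at an adjusted p under 0.05 was 0.00554% in TR against WT, 0.00554% in HE against WT and 0.975% in KO against WT, which is 176 genes. At an unadjusted p under 0.05 the share was 3% in TR against WT, 3.01% in HE against WT and 12.3% in KO against WT, where a threshold of 0.05 passes 5% if no gene differs. These 542 genes of TR against WT were made up of 309 higher in TR (1.71% of all genes) and 233 lower (1.29%). The TR and WT arrays did not overlap in 8.11% of all genes, with TR above in 868 (4.81%) and below in 596 (3.3%). After ENSMUSG00000019987 the smallest limma adjusted p (Benjamini-Hochberg) was 0.99999.

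The test of the difference between the treated and the untreated knockout is TR against KO. In the same fit it called 185 genes, 1.02% of all, of which 89 were higher (0.493% of all genes) and 96 lower (0.532%) in TR. The titles of all TR, HE and WT arrays of batch 3 open with the letters EE and those of the KO arrays with BB or CC. The meaning of these letters is not given in the sources used here. Every comparison with KO in batch 3 therefore also crosses the title letters, and the 2 cannot be told apart, while TR against WT lies within EE.

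The sizes of the differences were small. The absolute difference between TR and WT had a median of 0.068 log2, and 99% of genes lay under 0.34. For KO against WT the same quantities were 0.094 and 0.66, and for HE against WT 0.066 and 0.35. The 95% interval of TR minus WT lay wholly between -0.5 and 0.5 log2 for 16511 genes (91.4%) and wholly between -1 and 1 for 17930 genes (99.3%). The precision depended on the level of a gene. In the dimmest 4515 genes, at mean levels of 2.47 to 4.95 log2, the interval reached a median of 0.25 log2 to either side and 4.78% of genes passed an unadjusted p under 0.05. In the brightest 4514 genes, at 8.55 to 13.8 log2, it reached 0.18 and 2.17% passed, 70 genes higher and 28 lower in TR.

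**Figure D2:**
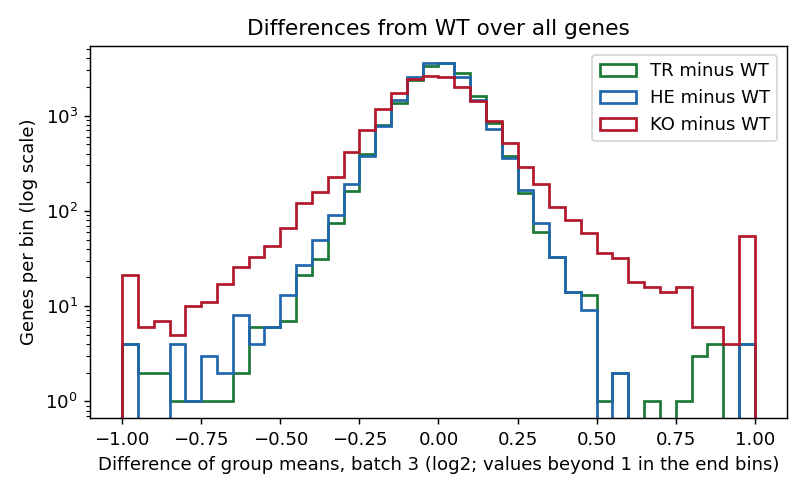
Number of genes (y axis, log scale) by the difference of group means from WT in batch 3 (x axis, log2, bins of 0.05, values beyond 1 counted in the end bins) for TR, HE and KO. TR and HE follow each other closely, with 99% of absolute differences under 0.34 and 0.35, and KO is wider at 0.66.

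At least 1 log2 unit separated the means of TR and WT for 7 genes, and 6 of them did not pass the test. Among these 6, 5 switched between a low and a high state in the same split of the arrays of batch 3. For 3 genes the level was 6.54 to 9.29 log2 in all WT arrays, TR replicates 1 and 2 and KO replicates 2 and 3, and 2.44 to 3.50 in TR replicate 3, KO replicate 1 and all HE arrays. The other 2 genes had the opposite pattern, at 9.55 to 11.5 log2 in TR replicate 3, KO replicate 1 and all HE arrays and at 3.70 to 5.75 in the rest. TR replicate 3 thus stood apart from the other TR arrays and from all WT arrays in these genes, and so did all HE arrays from all WT arrays. The labels give no sex, and without gene names it could not be checked whether this split follows the sex of the animals, which would then enter TR against WT through 1 array and HE against WT through all. Their mean differences, -2.24 to -1.44 and 1.68 to 1.93 log2, come from that array. Without TR replicate 3 the largest absolute difference among the 5 genes was 0.31 log2. The genes were grouped after their values were seen, and no test was made of the group.

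The remaining gene of at least 1 log2 varied strongly across the study. Its levels were 11.8, 11.2 and 10.4 in TR and 4.05, 11.5 and 10.4 in WT, with WT replicate 1 far below the other arrays. The difference was 2.48 ± 1.98 log2 (SE, 3 arrays per group). Over all 24 arrays it ran from 4.01 to 13.2. In all, 42 genes differed by at least 0.5 log2, 16 higher and 26 lower in TR, and 5 of the 42 were the switching genes. The arrays did not overlap in 16 of the 42, 3 higher and 13 lower, against 8.11% of all genes. Choosing genes by a large difference favours such non-overlap.

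TR replicate 3 also bore on the unadjusted count. Without it 944 genes (5.23%) passed an unadjusted p under 0.05, 531 higher and 413 lower, against 542 with it. The count at an adjusted p under 0.05 stayed at 1. Whether the state of the 5 switching genes has a part in this was not tested.

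Among the brighter 50% of genes, ENSMUSG00000029434 had the highest moderated t in TR against WT. Its levels were 8.91, 8.82 and 8.95 log2 in TR and 8.53, 8.55 and 8.47 in WT. The groups did not overlap, and the difference was 0.38 ± 0.090 log2 (SE, 3 arrays per group). Its limma adjusted p (Benjamini-Hochberg) was 0.99999. HE arrays read 8.87, 8.94 and 8.93 and KO arrays 8.60, 8.98 and 8.70, so all 9 other arrays of the batch lay above the WT arrays. In batch 1 KO and WT overlapped in this gene, with a difference of 0.11 log2. In batch 2 TR differed from HE by -0.15 log2, the opposite direction, with overlapping arrays.

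ENSMUSG00000028195 had the lowest moderated t. Its levels were 6.11, 6.14 and 6.79 log2 in TR and 7.58, 7.05 and 7.06 in WT. The groups did not overlap, with a difference of -0.88 ± 0.214 log2 (SE, 3 arrays per group) and a limma adjusted p (Benjamini-Hochberg) of 0.99999. Against KO, whose arrays read 7.72, 7.14 and 7.36, TR was lower by -1.06 log2, with an adjusted p (limma, Benjamini-Hochberg) of 0.0325 there. In batch 2 TR differed from HE by 0.09 log2 with overlapping arrays.

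The gene of the second lowest t read 8.49, 8.28 and 8.52 log2 in TR, 8.81, 8.78 and 8.71 in WT and 8.24, 7.94 and 8.02 in KO. These 3 groups did not overlap, and TR lay between WT and KO. HE arrays of batch 3 read 8.60, 8.65 and 8.59, below all WT arrays and above all TR arrays. TR was -0.34 ± 0.090 log2 below WT and 0.37 ± 0.090 log2 above KO (SE, 3 arrays per group). KO was lower than WT in batch 3 and in batch 1, with adjusted p (limma, Benjamini-Hochberg) of 0.00217 and 0.00743. TR against KO had an adjusted p (limma, Benjamini-Hochberg) of 0.0730 and TR against WT 0.99999. In batch 2 TR and HE overlapped, with a difference of 0.06 log2.

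The extremes of the bright genes were compared with separate treated arrays. The 8 genes of highest t differed by 0.24 to 0.38 log2 in TR against WT, and in 3 of them TR was also above HE in batch 2. The 8 genes of lowest t differed by -0.88 to -0.23 log2, and in 3 of them TR was also below HE in batch 2. None of the 16 passed an unadjusted p under 0.05 in limma in batch 2. With postnatal day as a block, 3 of the 16 did, all on the same side as in TR against WT, where 4.27% of all genes passed as higher and 4.31% as lower. In batch 3 HE lay on the same side of WT as TR in all 16, a comparison that shares the WT arrays.

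The 542 genes past an unadjusted p under 0.05 were followed in batch 2, which shares no array with the comparison. Of the 309 genes higher in TR, 188 (60.8%) were above 0 in TR minus HE of batch 2, against 51.0% of all genes. Of the 233 lower genes 107 (45.9%) were below 0, against 49.0% of all genes. An unadjusted p under 0.05 on the same side was reached by 19 of the 309 (6.15%, against 3.5% of all genes) and by 17 of the 233 (7.30%, against 2.92%). Genes higher in TR had a median of 0.26 log2 against WT and 0.032 in batch 2, and genes lower in TR had -0.27 and 0.010. Batch 2 sets TR against HE, not against WT. In batch 3 the medians of TR minus HE were 0.11 and -0.12 log2, on the same TR arrays that chose the genes. Those of HE minus WT were 0.14 and -0.16 log2, on the same WT arrays.

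**Figure D3:**
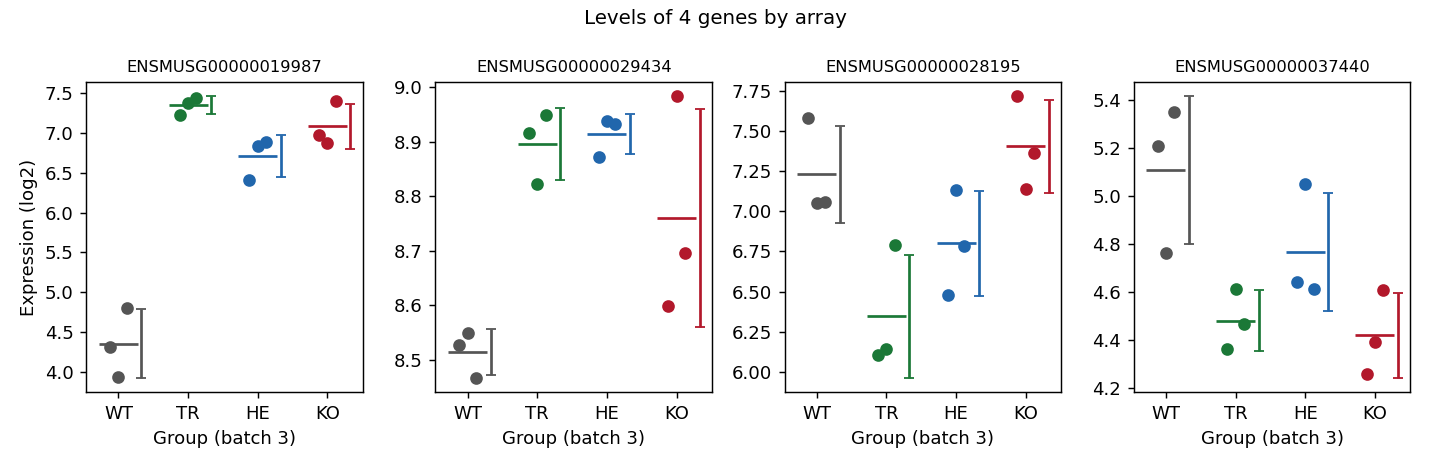
Levels (y axis, log2, a separate scale in each panel) of the genes given by ID in the arrays of batch 3 (points), with the mean (line) and SD (bar, n = 3) of each group. TR lies 2.996 log2 above WT in ENSMUSG00000019987, and the TR and WT arrays do not overlap in any of the 4 genes.

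Genes that set the untreated knockout apart were chosen in batch 1, which shares no array with TR against WT in batch 3. At a limma adjusted p (Benjamini-Hochberg) under 0.05, 913 genes (5.06%) differed between KO and WT there, 406 higher and 507 lower in KO. Array by array, the genes higher in KO other than ENSMUSG00000019987 had a median deviation from the WT mean of batch 3 of 0.028, -0.025 and -0.0076 log2 in the TR arrays. In the WT arrays it was 0.0097, -0.035 and 0.029, and in the KO arrays 0.42, 0.13 and 0.25. The TR arrays lay within the range of the WT arrays, and all KO arrays lay above both.

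The genes lower in KO had median deviations of -0.069, -0.043 and 0.097 log2 in the TR arrays. In the WT arrays these were -0.028, 0.017 and 0.022, and in the KO arrays -0.28, -0.13 and -0.23. Here the TR arrays spread beyond the WT arrays to both sides, with replicate 3 the highest, and the KO arrays lay below all of them. The deviations are taken from the mean of these same WT arrays, which draws the WT values towards 0. The wider spread of TR is therefore not read as a difference between the groups.

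**Figure D4:**
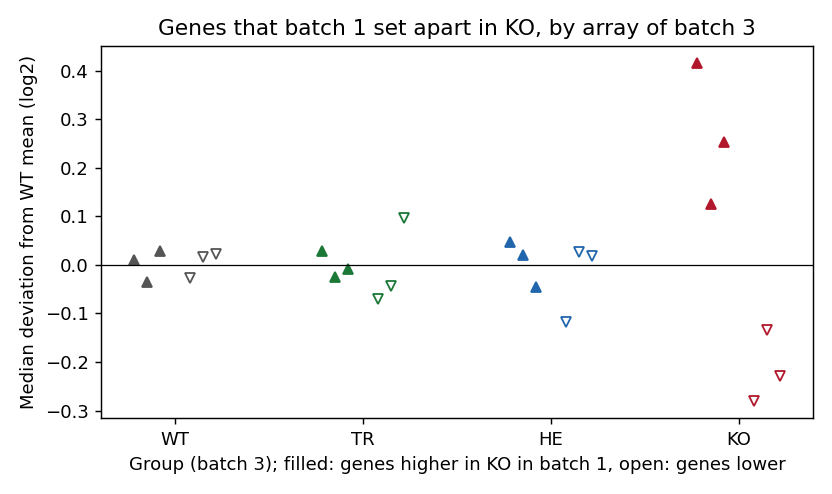
Median deviation from the WT mean of batch 3 (y axis, log2) for each array of batch 3, over the 405 genes higher in KO in batch 1 other than ENSMUSG00000019987 (filled) and the 507 genes lower (open). The TR arrays lie between -0.069 and 0.097, and the KO arrays at 0.13 to 0.42 and -0.28 to -0.13.

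The genes were then split by the size of their difference in batch 1. For the 47 genes at least 1 log2 higher in KO in batch 1, without ENSMUSG00000019987, the median difference was 1.24 in batch 1 and 0.80 for KO against WT in batch 3. For TR against WT it was -0.040. For the 17 genes at least 1 log2 lower the medians were -1.23 and -0.89 for KO and -0.095 for TR. In 13 of these 17 TR was below WT, and the same genes had a median of -0.15 in HE against WT. TR lay on the KO side of WT in 19 of the 47 higher genes (40.4%). For the whole sets this held in 198 of 406 higher and 268 of 507 lower genes. Over all genes TR was above WT in 52.4%. In TR against WT the median was -0.022 for the 194 genes with KO higher by 0.5 to 1 log2 in batch 1, and -0.016 for the 236 genes with KO lower by as much. Selection on batch 1 inflates its differences, so the KO medians of batch 3 are the fairer yardstick.

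For most of these genes the interval left no room for a difference of the batch 1 size, which the selection inflates. The 95% interval of TR minus WT excluded the KO minus WT difference of batch 1 for 383 of the 406 higher genes (94.3%) and 460 of the 507 lower genes (90.7%). It excluded 50% of that difference for only 203 (50%) and 217 (42.8%) of them. The median KO minus WT difference was 0.54 log2 for the higher and -0.50 log2 for the lower genes in batch 1. In the batch that TR and WT share it was smaller, at 0.27 and -0.21 log2. For how many genes the interval excludes the KO minus WT difference of that shared batch was not tested. TR differed from KO for 59 of the 406 higher genes and 38 of the 507 lower, at a limma adjusted p (Benjamini-Hochberg) under 0.05. The share over all genes was 1.02%. In all 97 TR was below KO where KO was higher in batch 1, or above KO where KO was lower. This comparison also crosses the title letters.

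**Figure D5:**
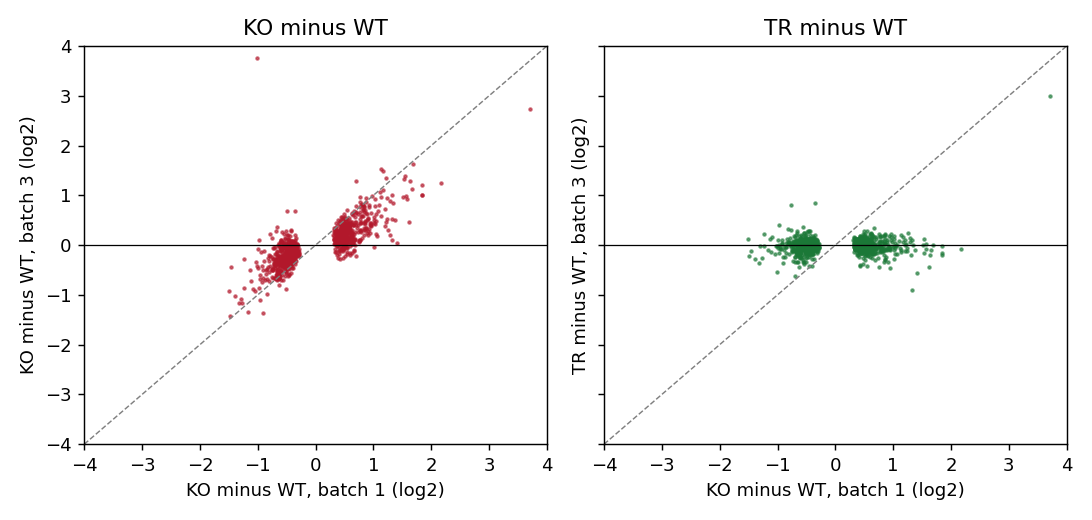
Difference from WT in batch 3 (y axis, log2) against the KO minus WT difference in batch 1 (x axis, log2) for the 913 genes called in batch 1, for KO (left) and TR (right), with a dashed line of equal values. In TR, 94.6% of genes higher in KO and 93.3% of those lower lie within 0.25 of 0, against 96.6% of all genes. ENSMUSG00000019987 lies at 2.996 in TR, and most KO points lean towards the dashed line.

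Few of the KO genes differed between TR and WT on the side of KO. Among the 406 higher genes 2 (0.493%) were higher in TR at an unadjusted p under 0.05, where 1.71% of all genes were, and 1 of them was ENSMUSG00000019987. Among the 507 lower genes 9 (1.78%) were lower in TR, where 1.29% of all genes were. Both shares are near or below the background. Of these 9, 1 also passed an unadjusted p under 0.05 by limma as lower in TR than in HE in batch 2, a side on which 2.92% of all genes passed.

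That gene, ENSMUSG00000037440, was chosen after its values were seen. It read 4.36, 4.61 and 4.47 log2 in TR and 5.21, 4.76 and 5.35 in WT of batch 3, without overlap. The difference was -0.63 ± 0.161 log2 (SE, 3 arrays per group), with an adjusted p (limma, Benjamini-Hochberg) of 0.99999. KO arrays read 4.26, 4.39 and 4.61 in batch 3, with overlap with TR, and TR minus KO was 0.06 log2 with a 95% interval of -0.28 to 0.41. HE arrays of batch 3 read 4.64, 5.05 and 4.61, with overlap with WT. HE minus WT was -0.34 log2 with a 95% interval of -0.68 to 0.0055. In batch 2 TR arrays read 4.15, 4.52 and 4.47 and HE arrays 4.996, 5.01 and 4.96, again without overlap and at a limma adjusted p (Benjamini-Hochberg) of 0.396. In batch 1 KO was -0.69 ± 0.125 log2 below WT (SE, 3 arrays per group), with an adjusted p (limma, Benjamini-Hochberg) of 0.00815. The gene is dim, with a mean of 4.69 log2 in batch 3. It was picked for lying on the KO side in both batches that held treated arrays, so that agreement is no separate evidence.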

How the data were processed

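RNA of the frontal lobe was hybridised to Affymetrix mouse arrays after oligo(dT)-primed amplification, per the labels' protocols, so values come from the 3' part of polyadenylated RNA. The authors deposited log2 expression values, 1 for each Ensembl gene on each array, made with affy and RMA per the submitters' processing notes. How probes were joined into genes, and whether batches were adjusted, is not given in the sources used here. A gene's means over the 3 batches had a median range of 0.028 log2, and 0 of 18057 genes had a limma batch p under 0.05 (unadjusted), so the values look adjusted for batch. A shift per batch leaves differences within batch 3 as they are, and a rescaling would change their size.

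The fit (limma 3.58.1, R 4.3.3) covered all 18057 genes on the 12 arrays of batch 3, with 4 groups and an intensity trend, with 8 residual and 6.37 prior degrees of freedom. Two-sided p-values were taken with Benjamini-Hochberg adjustment over all genes, and intervals are 95% intervals from that fit. Batches 1 and 2 were fitted alone alike, without a term for postnatal day. Day as a block was an alternative chosen after seeing the data. Arrays of the same day correlated at 0.16 to 0.25 in their deviations from the group means in batch 2 and at -0.15 to 0.083 in batch 1. The fit was tested on simulated data. P-values measure the spread between these samples, which the labels do not tie to litters, and the number of arrays limits the precision. The rule named called genes, the 8 of highest and 8 of lowest moderated t among genes above the median mean, the extremes of KO against WT in batch 1, fixed symbols, neighbours of Arg1 and members of 39 lists. Without a table that pairs IDs with symbols the symbol parts and lists could not be applied, and at most 2 IDs are printed in each direction. Members, lists and rules were chosen with earlier results of these data known.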

Additional observations from a re-analysis of the deposited data

How the results depend on the processing

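ENSMUSG00000019987 was called in all 14 alternatives that tested it, at 2.79 to 3.27 log2, and the other 4 genes described one by one kept their direction and stayed uncalled in each of theirs. The count of genes called in TR against WT was 2 with only the TR and WT arrays in the fit and 0 in limma with only genes above the median mean, which leaves out ENSMUSG00000019987 (207 at an unadjusted p under 0.05). The second gene was lower in TR, at 9.64 to 9.998 log2 against 10.56 to 10.62 in WT, with a limma adjusted p (Benjamini-Hochberg) of 0.0273 there. Leaving out 1 TR, WT or KO array gave 1 called gene each time and 410 to 944 at an unadjusted p under 0.05, the highest without TR replicate 3. KO replicate 1 was left out as an alternative chosen after seeing the data, and gave 1 and 555. With all 24 arrays and batch as a term, 1033 genes passed an unadjusted p under 0.05 in TR against WT, and the called genes numbered 1439 in KO against WT and 561 in TR against KO. KO against WT gave 276 with array weights and TR against KO 111 without the intensity trend. HE against WT gave 0 in limma with only genes above the median mean (148 at an unadjusted p under 0.05). Apart from the filter and the number of arrays, the cause of these shifts was not tested. With postnatal day as a block, 1394 genes were called in KO against WT of batch 1, among them all 913 called without it. Over the 614 higher and 780 lower of these genes the median of TR minus WT in batch 3 was -0.0072 and -0.0055 log2. In batch 2 the block gave 9 called genes in TR against HE in place of 2. No paired analysis was possible because the titles of the TR and WT arrays of batch 3 share no number, and the replicate numbers used here follow accession order and only name an array.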
